A study of Danio rerio with 18 samples.

Results

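The genes described here are 5 cathepsins, the lysosomal proteases ctsla, ctsd, ctsba, ctsc and ctsz. They were picked by gene symbol from the deposited table of 27015 genes. The gene ctsla was picked because its mRNA was among the most polysome-rich in these data. The bound over unbound values of the members are therefore given as a description, and only their change between stages is tested. Of the 5 symbols, 4 were matched directly, ignoring case. The gene whose identifier carries the symbol CTSB (ENSDARG00000055120.6) was taken as ctsba, because RefSeq (assembly GRCz12tu, used for names only) lists ctsb as an older name of ctsba. All 5 members passed the filter on low values.

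RNA came from pooled wild-type zebrafish embryos of the AB strain, collected as eggs, at the 1-cell, 16-cell and 128-cell stages, and at 3.5 and 5.3 hours post fertilization (hpf). The labels give no transgene, altered allele or added agent for any group. At each of the 6 stages RNA on polysomes (bound), RNA free of them (unbound) and unfractionated RNA were sequenced, and each of the 18 combinations has 1 library. There are therefore no replicates, and each p-value below sets an effect against the spread between stages. Since whole embryos were pooled, fewer cells of a type and less RNA per cell cannot be told apart.

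Cathepsins are made as inactive proenzymes and cut proteins inside lysosomes and related acidic compartments. In fish, yolk is taken up by the growing oocyte as vitellogenin, which is cleaved into yolk proteins in yolk granules and broken down further as the embryo uses it, and cathepsins B, D and L are the proteases most often linked to these steps. A messenger RNA that carries several ribosomes sediments with polysomes, so its share in the bound fraction is read as a measure of how much of it is being translated.

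The libraries held 30.67 M to 71.65 M estimated reads. The normalized counts of all genes summed to 56.2 M to 77.1 M in the bound libraries and 41.1 M to 48.4 M in the others. A group of 4 entries of the transcript files with names unlike those of transcripts took 0.520% to 2.25% of the reads in the 12 fractionated libraries and 5 to 59 reads in each unfractionated one. They serve below as an alternative scale for the fractions.

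Cathepsin L was the most polysome-rich of the members in every stage. The cysteine endopeptidase gene ctsla (ENSDARG00000007836.9) had bound normalized counts of 197334 in eggs, 201414 at the 1-cell, 229597 at the 16-cell and 189495 at the 128-cell stage, then 124900 at 3.5 hpf and 208182 at 5.3 hpf. Its unbound normalized counts at the same stages were 5950, 6240, 7053, 6184, 14579 and 28954. The bound library was higher at every stage, and the fractions did not overlap. The bound over unbound fold was 33.2, 32.3, 32.6 and 30.6 from egg to 128-cell, and 8.57 and 7.19 at 3.5 and 5.3 hpf. The mean over the 6 stages was 20.1-fold (log2 4.33 ± 0.41 SE, 12 libraries), the third highest of 24893 genes, of which 14% had a log2 value above 1. Over all genes limma called 8.46% higher and 7.1% lower in bound RNA. Among the 5 members, 3 had a value above 1, namely ctsla, ctsc and ctsd. Since ctsla was chosen on this ratio, its rank and this count are a description and not a test.

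As deposited, the early ctsla ratios lay close together. Over the 4 stages up to 128 cells their mean log2 was 5.01 with an SD of 0.05. Of 8315 genes with a mean of at least 1000 normalized counts in the fractionated libraries, 24 had a smaller SD over these 4 stages, and the median SD was 0.435. These genes were not matched to ctsla in abundance, and ratios of less abundant genes carry more counting noise. The steadiness of ctsla is that of the deposited scale and was not tested on the scale of the 4 other entries. Those entries took 1.966% and 1.176% of the reads in the bound libraries of the 1-cell and 128-cell stages. Their unbound shares there were 0.5571% and 0.7399%, so that scale moves the ratios of these stages apart. The unfractionated ctsla level was less steady, with normalized counts of 57639, 31311, 44331 and 25286 over the same stages, a 2.28-fold range against 1.21-fold in the bound and 1.19-fold in the unbound libraries. In the bound libraries ctsla ranked between 5 and 11 among all genes by normalized count, in the unbound ones between 120 and 2212, and in the unfractionated ones between 13 and 126.

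**Figure D1:**
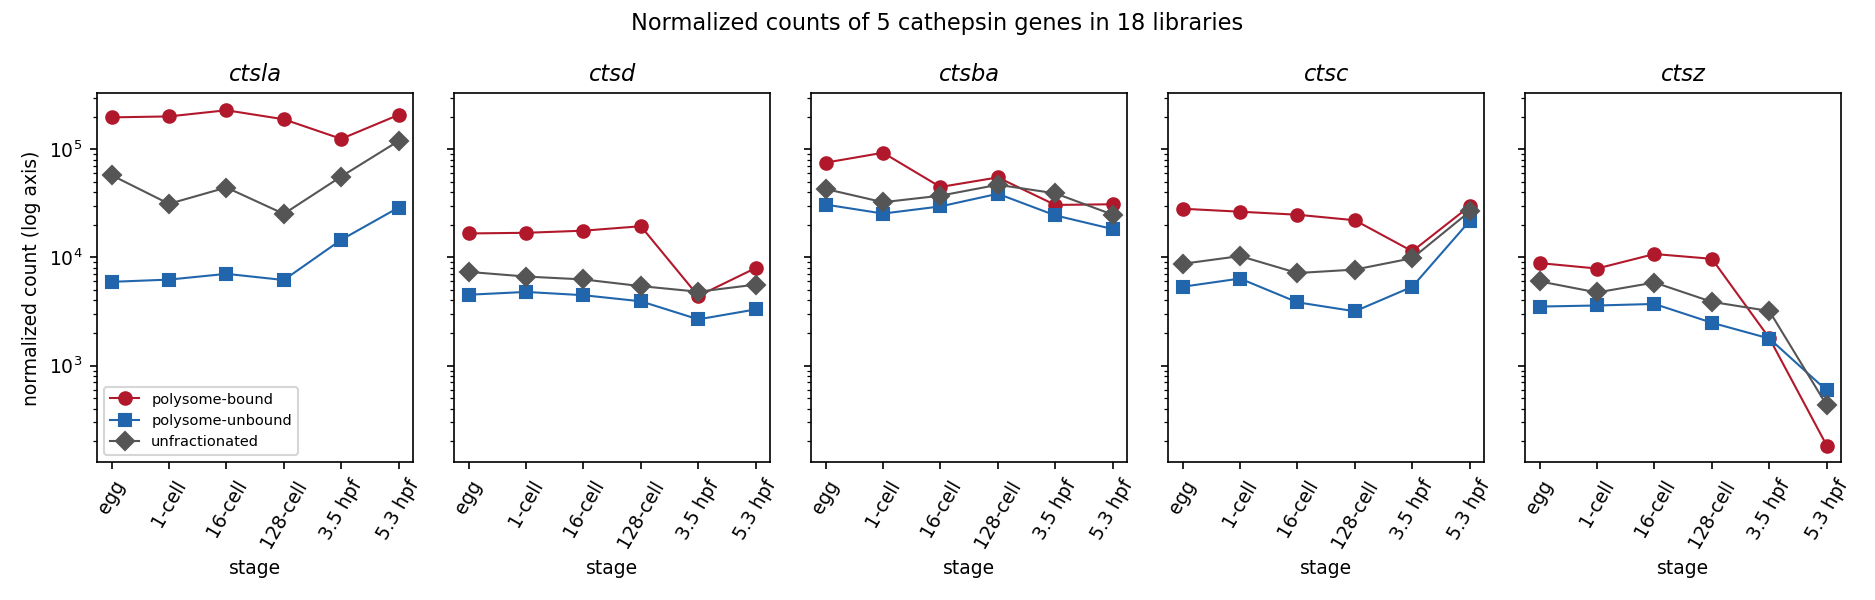
Normalized counts (log axis) of the 5 cathepsin genes at 6 stages, 1 point a library, for polysome-bound, polysome-unbound and unfractionated RNA. The bound and unbound lines of ctsla lie far apart at all 6 stages, from 229597 down to 5950, and those of ctsz cross between 3.5 and 5.3 hpf.

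As a share of all estimated reads of a library, ctsla took 0.230% of the bound egg library (95% exact binomial interval 0.229% to 0.232%) and 0.0164% of the unbound one (0.0160% to 0.0169%). These intervals cover the drawing of reads within 1 library only. They leave out the spread between libraries and the division of shared reads among transcripts. The reads also carry no molecular identifiers. At 5.3 hpf the shares were 0.343% (0.342% to 0.345%) and 0.0769% (0.0762% to 0.0776%). The fall in the ctsla ratio between 128 cells and 5.3 hpf came with a 4.68-fold higher normalized count in the unbound library, while the bound count was 1.1-fold higher. The unfractionated count was 4.73-fold higher over the same step. The unbound over unfractionated fold was thus 0.245 at 128-cell and 0.242 at 5.3 hpf. It was lower in eggs, at 1-cell and at 16-cell, with 0.103, 0.199 and 0.159. The bound over unfractionated fold went from 7.49 at 128-cell to 1.74 at 5.3 hpf. In eggs, at 1-cell and at 16-cell it was 3.42, 6.43 and 5.18. Of all stages, 128-cell had the lowest unfractionated ctsla count, 25286.

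The deposited transcript estimates divided ctsla unevenly between the fractions. The gene has 4 transcripts with reads, and 2 of them, of 1518 bases (ENSDART00000122288.3) and 768 bases (ENSDART00000136965.1), held nearly all of them. In TPM, a level scaled to transcript length and library size, the 768-base transcript stood at 2313, 2604, 2669, 1866, 2034 and 2100 in the bound libraries from egg to 5.3 hpf. In the unbound libraries it was listed at 0 in the 4 early stages, at 5.14 at 3.5 hpf and at 0.591 at 5.3 hpf. In the unfractionated libraries it stood at 909.6, 421.5, 742.2, 339.2, 816.7 and 1513 TPM. The shorter transcript thus made up 47.0% to 61.6% of the gene's TPM in bound, at most 0.989% in unbound and 39.1% to 50.6% in unfractionated RNA.

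The 1518-base transcript was found in all 18 libraries. Its bound TPM was 1866, 1847, 1722, 2062, 1221 and 2151, and its unbound TPM 196.4, 204.7, 239.2, 217.0, 500.4 and 854.7. Taken alone it was 9.50-, 9.02-, 7.20- and 9.51-fold higher in the bound libraries of the 4 early stages and 2.44- and 2.52-fold higher at 3.5 and 5.3 hpf. The whole-gene folds given further above are of length-corrected normalized counts, which is another scale. In TPM the whole gene stood at 4218, 4494, 4443, 3970, 3300 and 4310 in the bound libraries. Its unbound TPM was 197.4, 204.7, 239.8, 217.7, 520.2 and 871.6. On this same scale the folds of the 1518-base transcript are smaller than those of the whole gene at every stage. Salmon, the program that made the estimates, divides reads that several transcripts share, so the 0 in unbound RNA is an estimate, and how many of these reads belong to 1 transcript alone was not tested. Of 4717 transcripts from genes with several transcripts and at least 10000 bound reads, 30 (0.636%) had summed unbound reads under 1% of their bound reads. For the 768-base ctsla transcript it was 0.0436%, against a median of 75.1%. That transcript was singled out by this same low unbound share, and the set was filtered on bound reads only. Its place among the 30 is therefore a description and not a test.

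**Figure D2:**
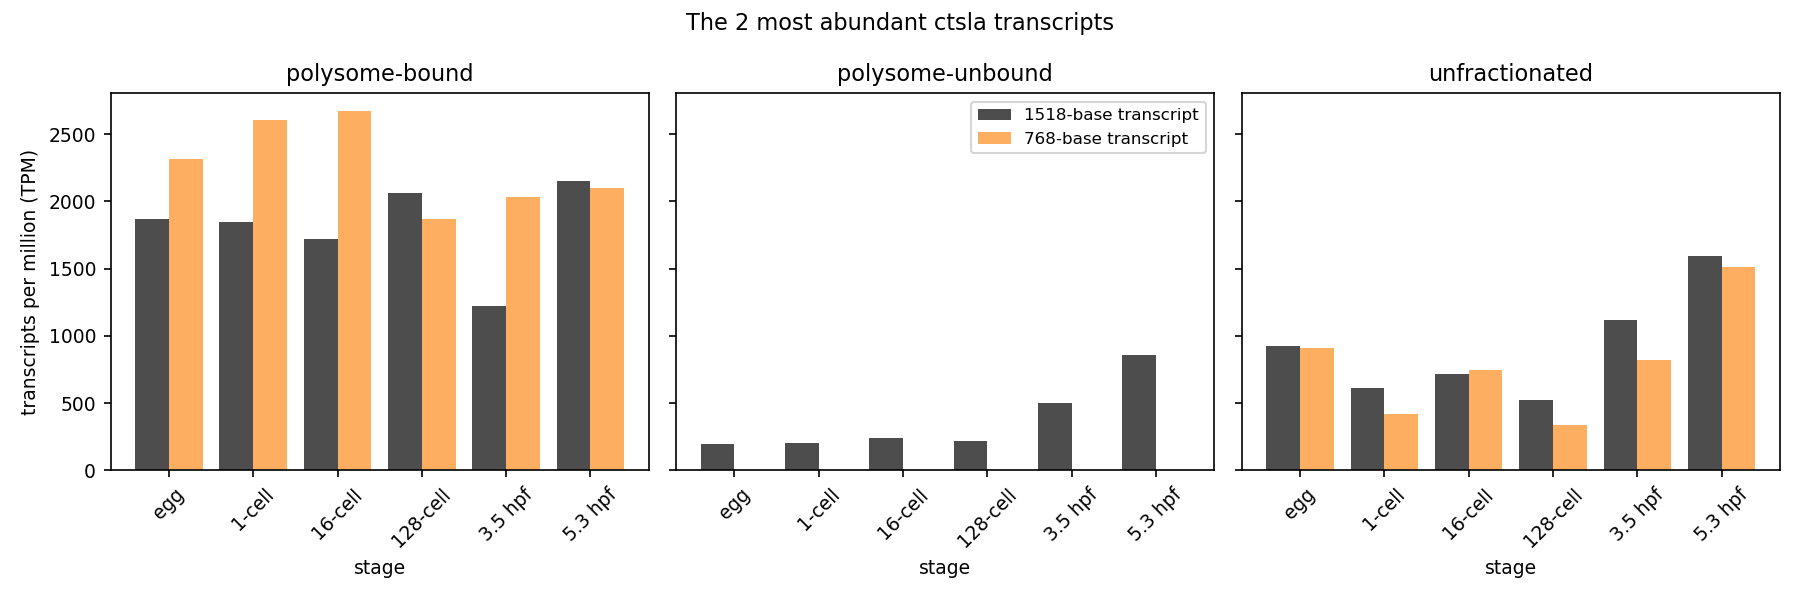
Level in TPM of the 2 most abundant ctsla transcripts at 6 stages, in polysome-bound, polysome-unbound and unfractionated libraries, 1 bar a library. The 768-base transcript lies between 1866 and 2669 TPM in bound RNA and at 5.14 TPM or less in unbound RNA, where the 1518-base transcript is the visible one.

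This division bears on the gene's fold, because the deposited counts are corrected for the mean length of the transcripts in each library. The correction of ctsla differed by log2 −0.55 between bound and unbound libraries, and 2.2% of 11262 genes with several transcripts had a lower value. With the reads divided by the library factor alone, the ctsla ratio was 13.8-fold (log2 3.78) in place of 20.1-fold. For ctsd, ctsba, ctsc and ctsz the same step moved the log2 ratio by at most 0.11.

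The aspartic protease gene ctsd (ENSDARG00000057698.7) had bound normalized counts of 16673, 16901, 17679 and 19441 in the early stages and 4402 and 7983 at 3.5 and 5.3 hpf. Its unbound counts were 4521, 4799, 4476, 3932, 2677 and 3307. The fold was between 3.52 and 4.94 up to 128 cells, 1.64 at 3.5 hpf and 2.41 at 5.3 hpf. At every stage the bound library was the higher, but at 3.5 hpf the bound count, 4402, lay below the unbound counts of the first 3 stages.

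The exopeptidase gene ctsc (ENSDARG00000101334.1), whose enzyme removes dipeptides from the ends of proteins, had the second highest ratio of the members. Its bound normalized counts were 28209, 26486, 24826, 22080, 11408 and 29802, and its unbound counts 5361, 6380, 3847, 3178, 5362 and 21769. The fold was 5.26, 4.15, 6.45, 6.95, 2.13 and 1.37 in stage order. The lowest value, at 5.3 hpf, came with the highest bound and the highest unbound count of the 6 stages.

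The cysteine protease gene ctsba was present at high level in both fractions. Its bound normalized counts were 75247, 92919, 44843, 54976, 30590 and 31027 and its unbound counts 30819, 25451, 29649, 38789, 24486 and 18300. The fold ranged from 1.25 at 3.5 hpf to 3.65 at the 1-cell stage, and bound and unbound libraries overlapped across stages. The estimates divided ctsba among 9 transcripts with reads, and the share of its 1429-base transcript ranged from 5.54% to 32.2% of the gene's TPM over the 6 bound libraries.

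The carboxypeptidase gene ctsz (ENSDARG00000043081.6) had the lowest mean ratio of the members. Bound normalized counts were 8867, 7898, 10758 and 9712 up to 128 cells, 1796 at 3.5 hpf and 182.3 at 5.3 hpf. Unbound counts were 3515, 3596, 3715, 2490, 1780 and 588.9. The bound library was 2.2- to 3.90-fold higher in the early stages and 1.01-fold at 3.5 hpf, and at 5.3 hpf the fold was 0.311, so the unbound library was the higher there.

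On the log2 scale the mean ratios of ctsd, ctsba, ctsc and ctsz were 1.66 ± 0.26, 0.89 ± 0.33, 1.91 ± 0.35 and 0.72 ± 0.42 (SE, 12 libraries). Scaled to the 4 other entries, the median log2 ratio of all genes moved from −0.01 to −1.34, that of ctsla became 2.85, and ctsba and ctsz turned to −0.59 and −0.77. Relative to the median of all genes under that scale the members were at 4.19, 1.52, 0.75, 1.77 and 0.57 for ctsla, ctsd, ctsba, ctsc and ctsz. Library totals moved the median to −0.54. As deposited, 54.4% of the genes called in bound against unbound were higher in bound RNA, against 15.6% with library totals and 1.26% with the 4 entries.

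**Figure D3:**
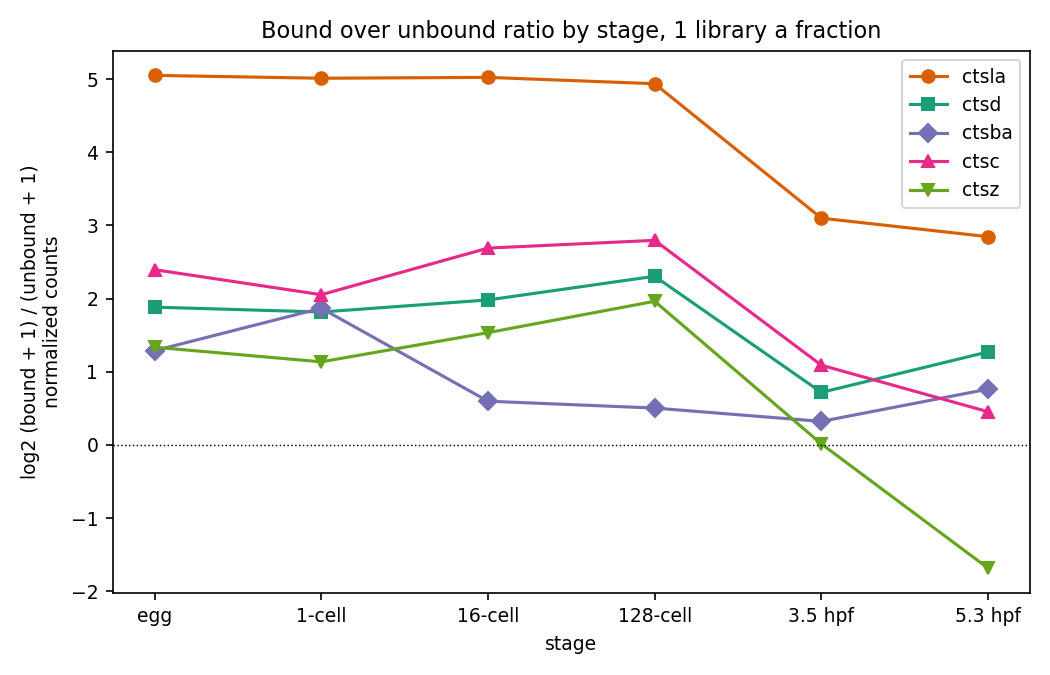
Log2 bound over unbound ratio of normalized counts plus 1 for the 5 genes at 6 stages, with 1 library for each fraction and stage. On this deposited scale the ctsla line is flat near 5.01 up to 128 cells. It lies at 3.10 and 2.85 at 3.5 and 5.3 hpf, above the other 4 genes throughout.

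Per length, ctsla and ctsba together made up most of the TPM of the 5 genes, and their order differed by fraction. In the bound libraries ctsla was first in 6 of 6, with 52.5% to 75.4% of the summed TPM against 18.8% to 40.5% for ctsba. In the unbound libraries ctsba was first in 6 of 6, with 43.8% to 84.5% against 8.06% to 41.5% for ctsla. In unfractionated RNA ctsba was first in 5 of 6 libraries and ctsla at 5.3 hpf, where they stood at 1105 and 3173 TPM. The margin was small at 3.5 hpf, with 2348 TPM for ctsba and 2009 for ctsla. The other members were each at 10.8% or less of the summed TPM in all 18 libraries. The order of ctsla and ctsba depended on the scale. In normalized counts unfractionated ctsla exceeded ctsba in eggs (57639 and 43001), at 16-cell (44331 and 37268) and at 3.5 hpf (56024 and 39151). It was below ctsba at 1-cell (31311 and 32410) and at 128-cell (25286 and 46997). Unbound ctsla exceeded ctsba at 5.3 hpf on that scale (28954 and 18300), but not at the earlier stages.

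**Figure D4:**
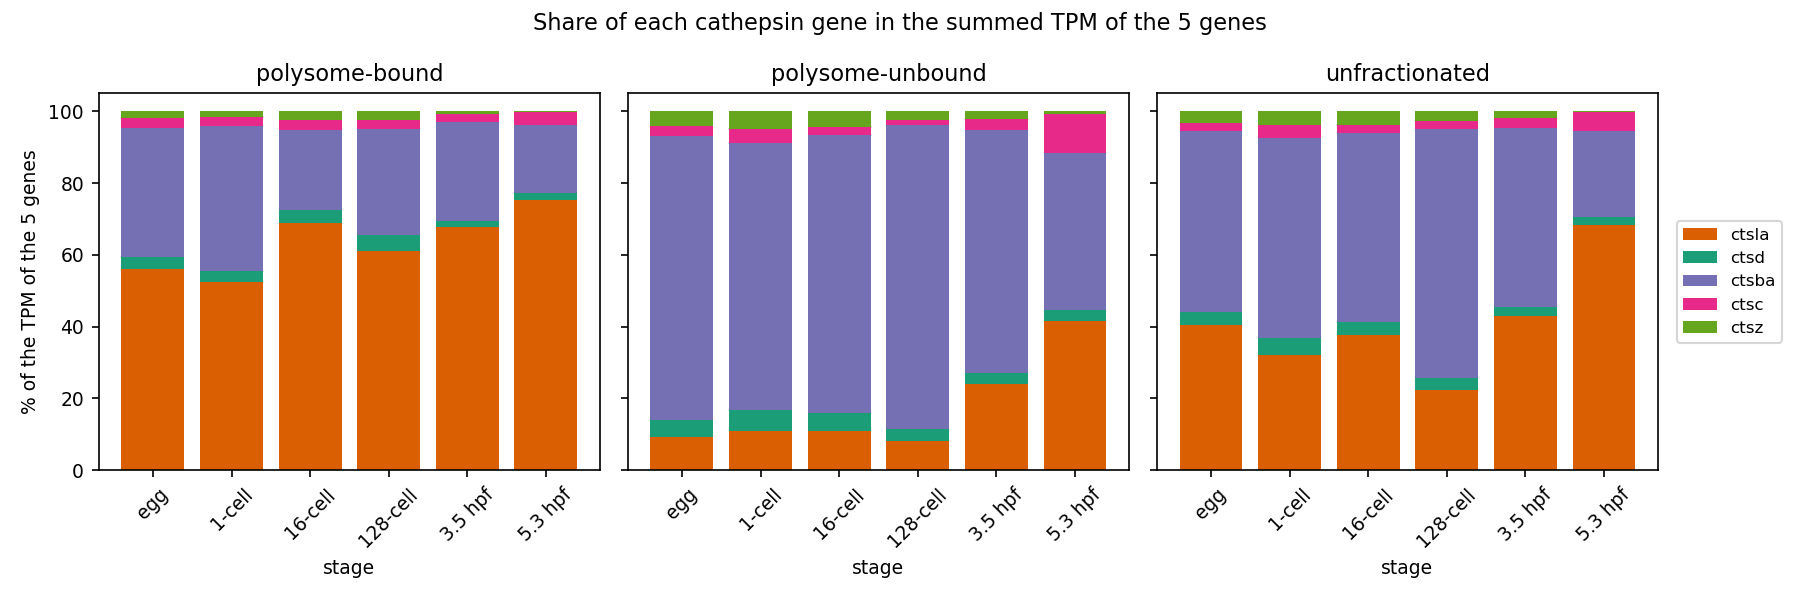
Share of each of the 5 genes in their summed TPM, 1 stacked bar a library, by stage and fraction. The orange part, ctsla, takes 52.5% to 75.4% of the bound bars and 8.06% to 41.5% of the unbound bars.

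The unfractionated libraries of 3.5 and 5.3 hpf were set against the 4 earlier ones to ask how the levels changed around the start of zygotic transcription. Of the 5 members, ctsz was lower and 0 were higher, while the remaining 4 did not pass, against 13% of 23949 genes lower and 22.5% higher. At an unadjusted p under 0.05 ctsla and ctsc were higher too, a level that 11456 of the 23949 genes reached in either direction. Unfractionated ctsz had normalized counts of 6010, 4746, 5865 and 3884, then 3195 and 429.3. The late values lay below all early ones, with a 4.31-fold lower mean (log2 −2.11 ± 0.69 SE, limma adjusted p = 0.0461). The call rested on 5.3 hpf: without that library the log2 value was −0.66 (adjusted p = 0.153), and with edgeR on gene sums it was −1.56 (adjusted p = 0.120). The call was missed under 9 of 15 alternatives, each stage but 3.5 hpf left out in turn among them.

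The ctsla level rose to its highest value at 5.3 hpf without passing the test. After the early counts given above, the unfractionated library held 56024 normalized counts at 3.5 hpf and 119507 at 5.3 hpf, and the egg library, at 57639, overlapped with the late pair. The difference was log2 1.12 ± 0.40 SE (adjusted p = 0.0622). It passed without the 3.5 hpf library (1.66, adjusted p = 0.0127), without the egg library (1.32, adjusted p = 0.0498), with library totals (1.13, adjusted p = 0.0456) and without the length correction (1.11, adjusted p = 0.0493). Without the 5.3 hpf library it was 0.57 (adjusted p = 0.383), and it did not pass under 11 of 15 alternatives.

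For ctsc the unfractionated normalized counts were 8735, 10298, 7177 and 7723, then 9844 and 26613, and the difference was 0.95 ± 0.38 (adjusted p = 0.0851). Only the 5.3 hpf library lay above all early ones. Without the 3.5 hpf library the log2 value was 1.66 (adjusted p = 0.000913), and without the 5.3 hpf library it was 0.23 (adjusted p = 0.535). Counts of ctsd were 7351, 6659, 6262 and 5431, then 4820 and 5609, with a difference of −0.30 ± 0.21 (adjusted p = 0.292). Counts of ctsba were 43001, 32410, 37268 and 46997, then 39151 and 24880, with −0.34 ± 0.24 (adjusted p = 0.300), without the 3.5 hpf library −0.67 (adjusted p = 0.0339) and without the 5.3 hpf library −0.01 (adjusted p = 0.972). The early and late counts of ctsd and ctsba overlapped.

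Marker lists of other cell types and of the egg were compared between the same libraries. All 8 tested markers of the yolk syncytial layer, the tissue that draws on the yolk, were higher in the late libraries, and the sum of the list went from 95.8 to 214.2 normalized counts in the early libraries to 6465 to 30153 in the late ones. All 15 first zygotic genes were higher (sums of 1002 to 1387 and 59618 to 169562). Of 13 egg and oocyte genes 9 were lower (164483 to 198497 and 23631 to 81095), against 13% of all genes. Macrophage markers were higher for 3 of 13 (486.2 to 829.3 and 807.3 to 1152), a share near the 22.5% of all genes called higher, with 1 MFAP4 gene under 10 in every unfractionated library. The counts higher were 6 of 10 for ovarian follicle (5122 to 7233 and 7907 to 9032), 4 of 9 for liver (185.7 to 283.1 and 1076 to 3431), 2 of 5 for hatching gland (188.1 to 375.5 and 6278 to 9097) and 1 of 3 for blood (115.8 to 140.4 and 435.9 to 511.5). The liver gene fabp10a and the globin genes hbaa1 and hbae1.1 were under 10 in every unfractionated library. None of these 4 lists had a member called lower. Some genes count in more than 1 list. Of those called for liver, hp, tfa and FGB are also yolk syncytial layer markers. The hatching gland gene klf17 and the yolk syncytial layer gene mxtx2 are also among the first zygotic genes. In the change of the ratio 3 of 13 egg and oocyte genes and 1 of 10 follicle genes were called lower, against 5.39% of all genes. The follicle share rests on 1 gene, and the other marker lists had no call. The part of these cells in the cathepsin values was not tested.

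The change of the bound over unbound ratio between the early and the late stages was tested as an interaction. The test asks about the change and not the mean ratio. It drew on the same bound and unbound libraries whose ratios led to the choice of ctsla, so it is not independent support for that choice. The ratios of ctsla, ctsc and ctsz fell, and those of ctsd and ctsba did not pass, so 3 of 5 members were called lower and 0 higher, against 5.39% and 2.36% of 24893 genes. The size of these falls was less rare than the calls. Of all genes, called or not, 14.3% had a lower value than ctsla, 19.5% than ctsc and 10.5% than ctsz. The ctsla ratio fell by 2.03 ± 0.44 SE on the log2 scale (adjusted p = 0.0236), a 4.10-fold lower ratio, from an early mean of 5.01 to a late mean of 2.97. On the deposited scale its early and late ratios did not overlap. The ctsc ratio fell by 1.71 ± 0.40 (adjusted p = 0.0310), from 2.48 to 0.77, and the ctsz ratio by 2.33 ± 0.49 (adjusted p = 0.0213), from 1.49 to −0.84. For ctsd the value was −1.0 ± 0.36 (adjusted p = 0.121) and for ctsba −0.52 ± 0.53 (adjusted p = 0.596).

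The scale bears on these values, since the median change of all genes was −0.51 as deposited, −0.29 with library totals, −0.24 with TMM (trimmed mean of M-values) and 0.49 with the 4 other entries. Relative to that median the change was −1.52 for ctsla, −1.20 for ctsc and −1.82 for ctsz as deposited and −1.40, −1.07 and −1.69 with the 4 entries, where none of the 3 passed (adjusted p = 0.759, 0.829 and 0.545). There ctsd and ctsba had values of 0.13 and 0.61. As deposited 30.4% of the genes called were higher, against 49.1% with library totals, 51.9% with TMM and 91.5% with the 4 entries. With 1 stage left out at a time, the ctsla call held without 128-cell but not without any other stage (log2 −2.16 to −1.91, adjusted p = 0.0318 to 0.0849). The same was true of ctsc (−2.03 to −1.39, adjusted p = 0.0480 to 0.130), and ctsz held without 128-cell or 1-cell (−3.18 to −1.48, adjusted p = 0.0331 to 0.109). Without 3.5 hpf limma called 0 genes of any kind, with 4289 at an unadjusted p under 0.05. With edgeR on gene sums ctsc missed the threshold (−1.38, adjusted p = 0.0575), and without the variance trend ctsla, ctsc and ctsz all did.

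The bound levels of all 5 members were lower at 3.5 hpf than at 128 cells, with a fold of 0.659 for ctsla, 0.226 for ctsd, 0.556 for ctsba, 0.517 for ctsc and 0.185 for ctsz in normalized counts. In unfractionated RNA the same step was 2.22 for ctsla, 0.887 for ctsd, 0.833 for ctsba, 1.27 for ctsc and 0.823 for ctsz. From 3.5 to 5.3 hpf the bound fold was 1.67 for ctsla, 1.81 for ctsd, 1.01 for ctsba and 2.61 for ctsc, against 0.101 for ctsz. In bound TPM the first step was 0.831 for ctsla, 0.2855 for ctsd, 0.702 for ctsba, 0.651 for ctsc and 0.233 for ctsz. The ctsba step from 3.5 to 5.3 hpf was 0.794 in bound TPM. Each of these folds compares a pair of libraries and has no replicate check. The bound normalized counts of all genes summed to 67.4 M at 128 cells and 56.9 M at 3.5 hpf. The share of all genes that were lower in this step was not counted, so the fall is not read as particular to the members. Of the other cathepsins, bound CTSA (0.307) and ctss2.1 (0.241) were lower too, while CTSO (1.12) and ctsf (7.91) were higher.

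Of the 14 other cathepsin genes in the table, 13 were tested in the unfractionated libraries, where 5 were higher, 1 was lower and 7 did not pass. Over all genes tested there 22.5% were called higher and 13% lower. The cathepsin L relative ctsll (ENSDARG00000011701.7) had normalized counts of 0, 3.83, 3.16 and 16.4, then 363.2 and 14094 (log2 9.03 ± 1.54, adjusted p = 0.00494). The aminopeptidase gene CTSH went from 2.58 to 24.1 in the early libraries to 207.3 and 866.4 (5.63 ± 0.94, adjusted p = 0.00446), and the cysteine protease gene ctsf from 54.5 to 192.0 to 1285 and 1951 (4.03 ± 0.53, adjusted p = 0.00187). The low genes ctslb.4 and ctss1 were also called, at 4.36 ± 0.84 (adjusted p = 0.00793) and 2.37 ± 0.66 (adjusted p = 0.0277), with at most 50.4 and 86.5 normalized counts. Those that did not pass were CTSA, ctsbb, CTSK, ctsl.1, CTSO, ctss2.2 and cts12, and ctslb was too low to be tested there. All 5 genes called higher started at 192.0 normalized counts or less, while the early counts of the members were 3884 or more.

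**Figure D5:**
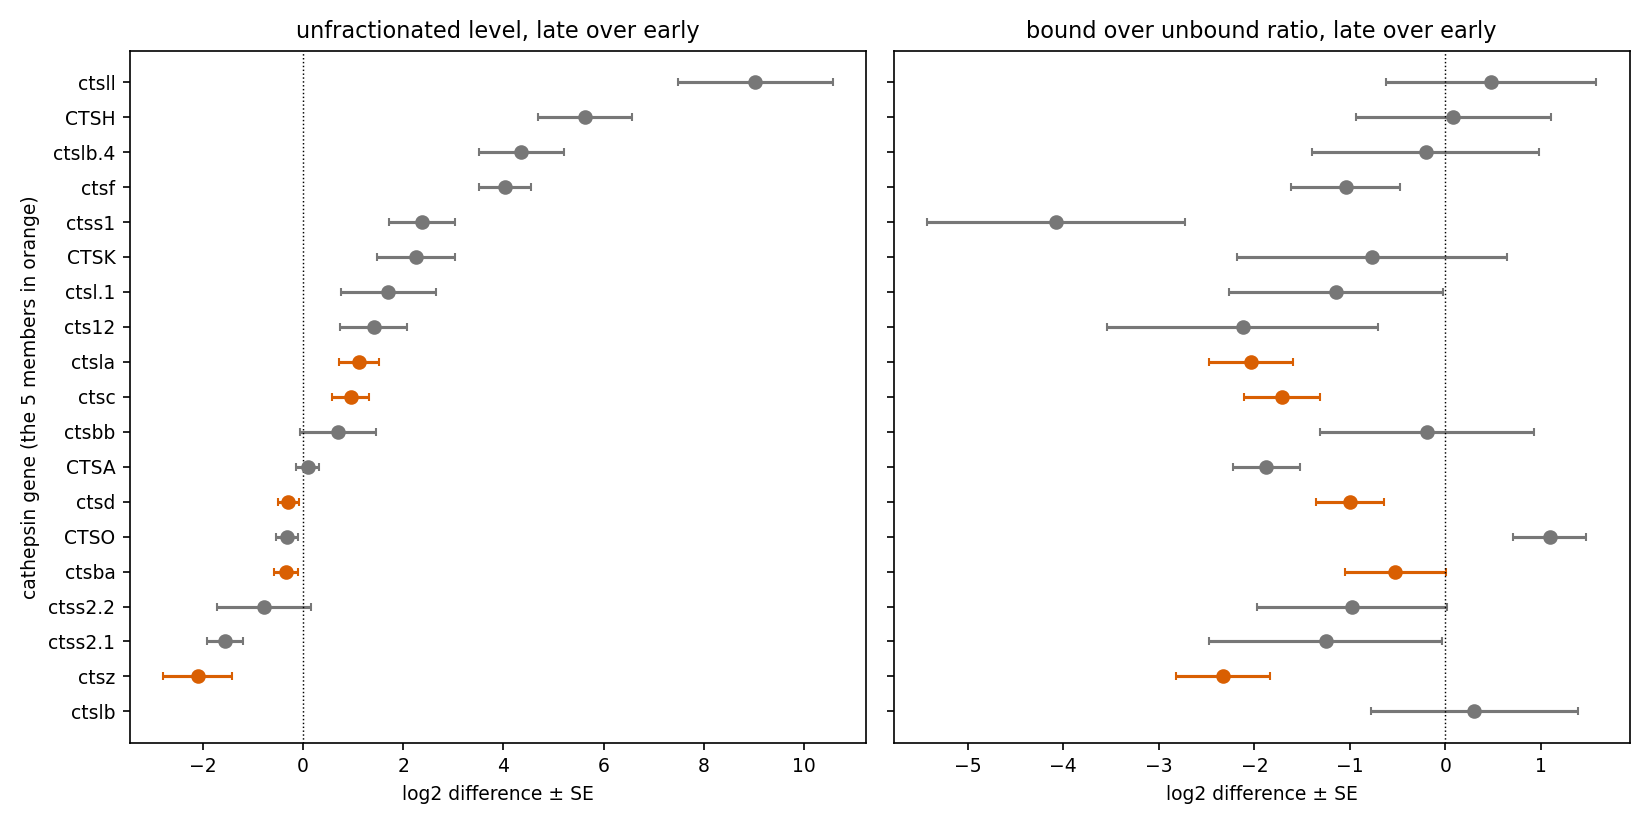
Log2 difference (± SE) between the 2 late and the 4 early stages for 19 cathepsin genes, on the left for unfractionated normalized counts and on the right for the bound over unbound ratio. The members are orange. On the right ctsla, ctsc and ctsz lie at −2.03, −1.71 and −2.33, and on the left ctsll lies farthest to the right at 9.03.

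The cathepsin S gene ctss2.1 (ENSDARG00000074656.3) was also abundant, at 3287 TPM in the bound egg library, where ctsla stood at 4218 TPM. Its bound normalized counts were 111462, 55814, 44749, 14105, 3396 and 13771, and its unbound counts 20162, 22363, 34091, 42533, 21286 and 5093. Its bound over unbound fold went from 5.53 in eggs to 2.50, 1.31, 0.332 and 0.160 and then to 2.70 at 5.3 hpf. On the same deposited scale the ctsla fold stayed between 30.6 and 33.2 up to 128 cells. Unfractionated counts were 50838, 29603, 50875, 39980, 21012 and 9533, lower in the late libraries (−1.56 ± 0.36, adjusted p = 0.0144).

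In the change of the ratio, 1 of the 14 other cathepsins was called lower and 0 higher, near the 5.39% and 2.36% over all genes. The serine carboxypeptidase gene CTSA (ENSDARG00000098114.1) had a bound over unbound fold of 3.63, 4.11, 3.27 and 3.33 in the early stages and 1.19 and 0.794 in the late ones (−1.88 ± 0.35, adjusted p = 0.0141). CTSO went the other way without passing (1.09 ± 0.38, adjusted p = 0.116) and was higher in the unbound fraction over all stages (log2 −1.09 ± 0.27, limma adjusted p = 0.0196). Cathepsin K, CTSK, had a mean log2 ratio of 3.21 ± 0.65 (adjusted p = 0.00810), at 183.1 normalized counts or less in every library.

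Other lysosomal genes were compared in the same unfractionated libraries, where 13% of all genes were called lower and 22.5% higher. Of 16 tested subunits and accessory proteins of the v-ATPase, the proton pump that acidifies lysosomes, 12 were lower and 1 was higher in the late stages, with a median log2 of −1.58 against 0.23 for all genes. ATP6V0D1 fell by 2.74 ± 0.40 (adjusted p = 0.00291), ATP6V1H by 2.23 ± 0.33 (adjusted p = 0.00282) and ATP6V1F by 2.15 ± 0.34 (adjusted p = 0.00370). Of 29 lysosomal glycosidases, lipases and sulfatases 9 were lower and 2 higher, with IDS, which removes sulfate from glycosaminoglycans, at −2.18 ± 0.31 (adjusted p = 0.00248). Of 20 genes that sort enzymes to lysosomes 6 were lower and 0 higher, among them the adaptor subunit AP1M1 (−1.28 ± 0.25, adjusted p = 0.00775) and RAB7A (−0.84 ± 0.22, adjusted p = 0.0221).

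In the change of the ratio, 5 of 16 tested lysosomal membrane and activator genes were called lower and 0 higher, with a median of −1.43 against −0.51 for all genes. Over all genes 5.39% were called lower and 2.36% higher. The sphingolipid activator GM2A fell by 2.2 ± 0.33 (adjusted p = 0.00771), LAPTM4A by 2.54 ± 0.39 (adjusted p = 0.00821), the cholesterol carrier NPC2 by 2.45 ± 0.39 (adjusted p = 0.00900) and the membrane protein lamp1b by 2.91 ± 0.53 (adjusted p = 0.0131). In unfractionated RNA 4 of the 16 were lower and 1 was higher, against 13% and 22.5% of all genes. M6PR, a receptor that carries enzymes tagged with mannose 6-phosphate, fell by 1.94 ± 0.41 in its ratio (adjusted p = 0.0213). It was the only one called of 20 sorting genes, a share near that of all genes. The glycosidase list had 2 called lower of 29, also near the share of all genes, among them GALC (ENSDARG00000037064.5, −2.08 ± 0.36, adjusted p = 0.0108). The v-ATPase list had 2 called higher of 16, ATP6V1F and atp6v1e1b.

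Among 11 other lysosomal peptidases 2 were higher and 2 lower in unfractionated RNA, near the 22.5% and 13% over all genes. PRCP (1.91 ± 0.35, adjusted p = 0.00643) and DPP7 (2.85 ± 0.91, adjusted p = 0.0433) rose, and SCPEP1 (−0.92 ± 0.20, adjusted p = 0.0125) and ASRGL1 (−1.01 ± 0.28, adjusted p = 0.0287) fell. The ratios of PEPD and ASRGL1 rose by 2.62 ± 0.41 and 2.30 ± 0.44 (adjusted p = 0.00889 and 0.0156), and none of the 11 was called lower. Over all genes 2.36% were called higher and 5.39% lower in the change of the ratio. Of 6 tested inhibitors of cysteine proteases 2 were higher, cst3 (3.48 ± 0.44, adjusted p = 0.00161) and fetub (5.26 ± 1.38, adjusted p = 0.0234). The yolk protein and apolipoprotein list had 5 of 10 higher and 0 lower, among them apoeb (6.98 ± 0.86, adjusted p = 0.00151) and vtg1 (3.99 ± 0.78, adjusted p = 0.00842). TFEB, a transcription factor that drives lysosomal genes in mammals, was higher (3.0 ± 0.56, adjusted p = 0.00683), and tfe3b did not pass. limma called no inhibitor, yolk protein or transcription factor gene in the change of the ratio, and apoeb (1.61 ± 0.50, adjusted p = 0.0829) alone had an unadjusted p under 0.05.

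Over the 18 libraries, with Pearson's r on log2 normalized counts plus 1 among 14503 genes with a mean of at least 100, the genes with a symbol nearest to ctsla were SSB (0.988), which encodes the La protein, MAGOHB (0.988), an exon junction complex subunit, HNRNPAB (ENSDARG00000007960.9, 0.987), the RNA helicase gene DDX39A (0.984) and a further HNRNPAB gene (ENSDARG00000099865.1, 0.983). Reads that the HNRNPAB genes share were not examined. Libraries of 1 fraction share their preparation, so these values describe the pattern over fractions and stages. Among the members, the r with ctsla was 0.885 for ctsc, 0.735 for ctsd, 0.5 for ctsba and 0.022 for ctsz.

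The nearest genes to ctsd were MCOLN3 (0.980), an ion channel of endosomes and lysosomes, and the lysosomal peptidase TPP1 (0.973). Those to ctsba were TMED5 (0.961), a protein of the early secretory pathway, and zgc:110239 (0.940). For ctsc they were rap1aa (0.975), a small GTPase, and the integrin subunit ITGA5 (0.974), and for ctsz the DNA repair gene RAD54B (0.985) and ACADL (0.985), an enzyme of fatty acid oxidation.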

How the data were processed

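Polysome-bound, polysome-unbound and unfractionated RNA, depleted of ribosomal RNA, was sequenced from stranded libraries, per the labels' protocols. Per the submitters' processing notes, the tools were Salmon 0.6.0, DESeq2, STAR 2.4.2a, GSNAP, Cufflinks 2.2.1, cutadapt 1.9.1 and bcl2fastq 2.16.10, on genome build GRCz10, and their roles are not given in the sources used here. Per the file headers, the transcript files deposited by the authors hold TPM and estimated counts for 52340 entries. The gene table deposited by the authors holds a signal for 27015 genes, of which 22547 were matched to a symbol. For 24371 of 24378 genes with a sum of at least 100, that signal was rebuilt as the rounded sum of estimated counts divided by a library factor and by the relative mean transcript length, which gave the transcripts of each gene. It is called the normalized count. No transcript to gene table was used.

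Genes that reached 10 normalized counts in 2 or more libraries were fitted with limma 3.58.1 (mean-variance trend, R 4.3.3) on log2 of the normalized count plus 1, a scale that understates folds of low genes, with Benjamini-Hochberg adjustment over all genes and a threshold of 0.05. The fits were bound against unbound blocked by stage (12 libraries, residual degrees of freedom 5), late against early unfractionated (6 libraries, 4), and the late against early change of the ratio (12 libraries, 4). The deposited values are not whole reads, so edgeR 4.0.16 on rounded estimated counts is an alternative. The members and gene lists were chosen with earlier results of these data known. Named are the 5 members, the cathepsin family, up to 4 genes a list with the smallest p in each test, and the genes nearest to each member by correlation, 5 for ctsla and 2 for each other. Of the genes this rule picks, 1 is not reported here.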

Additional observations from a re-analysis of the deposited data

Results flagged for a closer look

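The bound over unbound ratio of 4 cathepsin genes differed between the early and the late stages by the test of that difference itself. They were 3 of 5 members and 1 of 14 other cathepsins, all called lower. Over all 24893 genes 5.39% were called lower and 2.36% higher. On the log2 scale the change, late minus early, was −2.03 for ctsla (adjusted p = 0.0236), −1.71 for ctsc (adjusted p = 0.0310), −2.33 for ctsz (adjusted p = 0.0213) and −1.88 for CTSA (adjusted p = 0.0141), all by limma over 12 libraries. On the deposited scale the ratio was lower in 2 of 2 late stages than in all 4 early stages for each of the 4 genes. Scaled to the 4 other entries, ctsla, ctsc and ctsz did not pass (limma adjusted p = 0.759, 0.829 and 0.545). On that scale the order of the stages did not hold for ctsla. Those entries took 0.8241% of the bound and 1.096% of the unbound reads at 5.3 hpf. At 1-cell they took 1.966% and 0.5571%, which puts the ctsla ratio of 5.3 hpf above that of 1-cell. For ctsc, ctsz and CTSA the order was not examined there. With 1 early stage left out at a time, the ctsla and ctsc calls held only without 128-cell. The ctsz call held without 128-cell or 1-cell. CTSA was not examined under the alternatives. The test drew on the same bound and unbound libraries whose ratios led to the choice of ctsla.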

How the results depend on the processing

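In bound against unbound, 3874 genes were called as deposited, 7154 with library totals, 12745 with the 4 other entries, 2353 without the trend, 1835 without the stage block and 1748 transcripts with edgeR, and 1831 to 4507 with 1 stage left out. Under the 4 entries ctsba and ctsz reversed to −0.59 and −0.77. Late against early unfractionated called 8500 genes, 3244 to 9493 with 1 stage left out and fewest without 5.3 hpf. The change of the ratio called 1929 genes, 351 with the 4 entries, 1 without the trend, 1078 without the stage block, 129 transcripts with edgeR, and 0 to 2115 with 1 stage left out, with 0 when 3.5 hpf was left out. The causes were not tested. Over all alternatives the adjusted p ranged from 0.0189 to 0.759 for the change of the ctsla ratio, 0.0238 to 0.829 for ctsc and 0.0199 to 0.545 for ctsz, with 9, 6 and 9 of 17 past the threshold, and in unfractionated RNA from 0.0127 to 0.383 for ctsla (4 of 15 past it) and 0.000128 to 0.217 for ctsz (6 of 15). The edgeR gene sums and the fits without length correction were added after seeing the data. Scaling the unfractionated libraries to the 4 other entries was not run, since those entries hold 59 reads or fewer there. Bound and unbound libraries were paired by stage. No pairing by replicate number was possible, because each stage and fraction has 1 library. Depth limits little for the members, whose lowest library holds 181 reads. The number of stages limits every test.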
